A study of Mus musculus with 8 samples.

Results

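The Ifi200 genes form a cluster on mouse chromosome 1 whose transcription rises with interferon, and 4 of them, Ifi202b, Ifi203, Ifi204 and Ifi205, were followed here in liver RNA of KKAy and C57BL/6J mice. Members were the probes whose gene name in the scanner files is one of these 4: 10 of 41174 probes on the array, with 1 for Ifi202b and 3 for each of the others. Of these 10 probes 8 passed the filter on dim signals, among 25320 that passed in all. The series holds 8 one-colour arrays, 2 for each strain at each of 2 ages, 4 and 11 weeks. KKAy mice carry the yellow allele of agouti, grow obese and are given as diabetic; C57BL/6J, a common inbred strain, is given as normal. All were on chow and had fasted for 13.5 hours, and their sex is not stated in the sources used here. Whether the 2 samples of a group were separate animals is not stated either, so the p-values reflect the spread between these samples only, and that spread may be technical. Each level below is a log2 signal relative to the 75th percentile of its array, and each difference is KKAy minus C57BL/6J, or 11 minus 4 weeks, on that log2 scale, with the SE and the Benjamini-Hochberg adjusted p of limma over all probes tested. The threshold was an adjusted p of 0.05. Whether the KKAy sequence matches the probes of this gene family was not tested, so a strain difference in signal may not be one in RNA amount.

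Proteins of this family carry a HIN domain, which binds DNA, and most also carry a pyrin domain, through which they join other proteins. Aim2, one of them, senses DNA in the cytosol and assembles an inflammasome; p202, the product of Ifi202b, has no pyrin domain and opposes Aim2. The genes are induced by interferons and are best known from macrophages and other immune cells, which in liver means mainly the resident Kupffer cells. Ifi202b is known to differ in expression between inbred strains and has been a candidate gene for obesity and for autoimmunity.

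The promoters are shown first, and their part in the strain differences was not tested. RefSeq windows (GRCm38.p6) run from 250 bases before to 50 bases after a start site, and 3 of the 4 members had one; Ifi204 had no entry. Ifi202b was read from chr1:173982795-173983094, Ifi203, which has a pair of windows, from the one at chr1:173942443-173942742, and Ifi205 from chr1:174031706-174032005, all on the minus strand. Below, 5′ to 3′, capitals mark matches to GAAA, any 2 bases and GAAA again, the core of the interferon-stimulated response element, and to TTCNNNGAA, the core to which STAT proteins bind; both were searched on both strands, and no match of one overlapped the other.
Ifi202b: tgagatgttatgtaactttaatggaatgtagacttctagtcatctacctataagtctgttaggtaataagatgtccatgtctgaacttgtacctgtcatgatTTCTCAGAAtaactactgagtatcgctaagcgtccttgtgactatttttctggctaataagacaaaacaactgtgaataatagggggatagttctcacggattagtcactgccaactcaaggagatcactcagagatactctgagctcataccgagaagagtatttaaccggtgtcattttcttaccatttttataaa
Ifi203: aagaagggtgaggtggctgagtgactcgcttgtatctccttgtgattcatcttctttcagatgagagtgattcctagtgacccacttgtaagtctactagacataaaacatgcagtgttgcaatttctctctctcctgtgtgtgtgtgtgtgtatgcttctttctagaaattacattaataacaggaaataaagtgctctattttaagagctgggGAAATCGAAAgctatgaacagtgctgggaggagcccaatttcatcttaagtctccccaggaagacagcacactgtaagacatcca
Ifi205: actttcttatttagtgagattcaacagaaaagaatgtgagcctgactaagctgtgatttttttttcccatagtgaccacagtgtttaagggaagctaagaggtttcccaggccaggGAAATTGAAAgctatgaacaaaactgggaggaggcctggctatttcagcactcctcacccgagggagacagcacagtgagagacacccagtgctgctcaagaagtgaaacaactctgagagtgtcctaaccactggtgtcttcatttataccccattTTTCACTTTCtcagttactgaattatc
Ifi203 had GAAATCGAAA from 35 bases before its start, and its other window had no match. Ifi205 had GAAATTGAAA from 134 bases before its start and a match on the opposite strand, TTTCACTTTC, downstream of the start. Ifi202b had no match to the response element core in this window and 1 to TTCNNNGAA, TTCTCAGAA, from 148 bases before its start. A match is a run of letters, not a site shown to be bound. The reference does not give the KKAy sequence, so the Ifi202b promoter of KKAy, the strain with signal, is not shown here.

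The same core stood close to the start of neighbouring family genes, of which 3 are shown with 40 bases around it. Ifi206 lies at chr1:173491334-173491373, Ifi207 at chr1:173741826-173741865 and Ifi211 at chr1:173913059-173913098, all on the minus strand.
Ifi206: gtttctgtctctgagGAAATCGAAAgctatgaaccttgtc
Ifi207: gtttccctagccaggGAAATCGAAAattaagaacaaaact
Ifi211: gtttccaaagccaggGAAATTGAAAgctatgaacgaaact
In these 3 genes the match began 40, 41 and 37 bases before the start, and in Ifi211 it read GAAATTGAAA, as in Ifi205. Counting the other Ifi200 genes, 9 of 12 genes with a window held the response element core, against 1079 of 27025 genes with a window in RefSeq (3.99%), or 3.44% of all 32851 windows of the same length. Ifi202b, Aim2 and Ifi209 were the 3 without it. TTCNNNGAA was found in 8.30% of all windows, and Ifi202b alone held it among these 12 genes. Some windows of the family are near copies of each other. The 40 bases around the response element core are identical in Ifi208 and Ifi213, and again in Mndal and Ifi203. The 12 genes are therefore not independent, so 9 of 12 against 3.99% is a description and does not measure an enrichment.

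Ifi202b was higher in KKAy liver at both ages, and no C57BL/6J array was well above background. Its probe (A_51_P151182, chr1:175799497-175800526 on the minus strand of mm8, the build of the file annotation) gave -8.52 and -7.34 in C57BL/6J at 4 weeks, -7.81 and -7.91 in C57BL/6J at 11 weeks, -0.22 and -0.04 in KKAy at 4 weeks, and -0.70 and -0.51 in KKAy at 11 weeks. All 4 KKAy arrays were high and all 4 C57BL/6J arrays were at background, at 2.56 to 4.16 fluorescence units against 334 to 751 units in KKAy. KKAy was at least 51.3-fold higher at 4 weeks (adjusted p = 0.000232) and at least 34.8-fold higher at 11 weeks (adjusted p = 0.000192). Such a bound sets the bright group's mean against the lowest signal of any probe well above background on the arrays of the dim group. Here and below it is nominal, since some signals above that lowest one were not counted as well above background. It also holds for processed signal only: with the other background correction, normexp, the folds were 13.3 and 7.62. Within KKAy, both 11-week arrays lay below both 4-week arrays, by -0.47 (SE 0.36, 95% interval -1.37 to 0.42, adjusted p = 0.442). That difference was called under quantile normalization alone among the alternatives (adjusted p = 0.0421).

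Ifi204 is the member most studied as a DNA sensor of macrophages and as a partner of the retinoblastoma protein in differentiation. Its probes gave lower signal in KKAy at both ages. On A_51_P408343 (chr1:175585909-175585968, minus strand, mm8) the arrays read 1.94 and 1.95 in C57BL/6J at 4 weeks, 0.78 and 0.75 in C57BL/6J at 11 weeks, -0.60 and -0.68 in KKAy at 4 weeks, and -1.13 and -1.42 in KKAy at 11 weeks. The 4 groups stood in that order with no overlap, and the strain gap was wider than the gap between ages. The strain difference was -2.59 (SE 0.13, adjusted p = 0.00026), 6.0-fold lower, at 4 weeks, and -2.04 (SE 0.13, adjusted p = 0.00037), 4.11-fold lower, at 11 weeks. A_51_P408346, the next 60-base stretch at chr1:175585969-175586028, read 1.39, 1.26, 0.17, 0.12, -1.13, -1.39, -1.86 and -1.98 in the same order of arrays. Its strain differences were -2.59 and -2.06 (SE 0.13 each, adjusted p = 0.000279 and 0.000379). Both probes kept the strain calls whichever array was left out.

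The third Ifi204 probe, A_52_P83479 (chr1:175592563-175592622), lists transcripts of Ifi204, Ifi205 and Ifi211, so it may not read Ifi204 alone. It gave -0.49 and -0.92 in C57BL/6J at 4 weeks, -2.13 and -2.38 at 11 weeks, -3.59 and -3.95 in KKAy at 4 weeks, and -4.03 and -4.75 at 11 weeks. Again KKAy lay below C57BL/6J at each age on every array. The strain differences were -3.06 (SE 0.29, adjusted p = 0.00185) and -2.14 (SE 0.29, adjusted p = 0.00509), and -2.03 and -0.87 with normexp.

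Ifi205, expressed in macrophages and known for a part in fat and bone cell differentiation, gave lower signal in KKAy too. A_51_P377620 (chr1:175851694-175851753), whose listed transcripts are those of Ifi204, Ifi205 and Ifi211 as well, read 1.94 and 2.02 in C57BL/6J at 4 weeks, 0.50 and 0.54 in C57BL/6J at 11 weeks, -0.09 and -0.02 in KKAy at 4 weeks, and -0.65 and -0.53 in KKAy at 11 weeks. Replicates lay close together and no groups overlapped. The strain difference was -2.03 (SE 0.10, adjusted p = 0.000281), 4.09-fold lower, at 4 weeks and -1.11 (SE 0.10, adjusted p = 0.0013), 2.16-fold lower, at 11 weeks, and it was called whichever array was left out.

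A_52_P435154 (chr1:175863291-175863350) lists transcripts of Ifi205 only. It gave -2.76 and -2.96 in C57BL/6J at 4 weeks, -4.90 and -4.63 in C57BL/6J at 11 weeks, -7.39 and -6.72 in KKAy at 4 weeks, and -7.17 and -6.80 in KKAy at 11 weeks. No KKAy array was well above background, and every C57BL/6J array was. C57BL/6J was at least 5.24-fold higher at 4 weeks (adjusted p = 0.000541) and at least 1.29-fold higher at 11 weeks (adjusted p = 0.00302). The 1.29 is not a strict bound, since the C57BL/6J mean was -4.76. On KKAy 11-week replicate 2, Olfr1406 at -4.62 was not well above background. With normexp the values were -1.16 and -0.22, and the 11-week call was lost. The third Ifi205 probe, A_52_P14103 (chr1:175861909-175861968), was not well above background on any of the 8 arrays and was not tested.

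Ifi203, a nuclear member found in blood-forming and macrophage-lineage cells, showed the weakest strain difference of the 4 on its brightest probe. A_51_P237856 (chr1:175757152-175757211) read 0.29 and 0.64 in C57BL/6J at 4 weeks, -0.78 and -0.52 in C57BL/6J at 11 weeks, -0.88 and -0.53 in KKAy at 4 weeks, and -1.46 and -0.99 in KKAy at 11 weeks. C57BL/6J at 4 weeks stood above the other 3 groups, while C57BL/6J at 11 weeks and KKAy at 4 weeks overlapped. The strain difference was -1.17 (SE 0.23, adjusted p = 0.0225) at 4 weeks, and -0.58 (SE 0.23, 95% interval -1.14 to -0.02, adjusted p = 0.136) at 11 weeks. The 4-week call was lost without replicate 1 or 2 of C57BL/6J at 4 weeks, of C57BL/6J at 11 weeks or of KKAy at 4 weeks (adjusted p = 0.0234 to 0.132 over the 8 omissions, differences of -1.35 to -0.99).

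A second Ifi203 probe, A_52_P134762 (chr1:175770321-175770380), gave -2.60 and -2.86 in C57BL/6J at 4 weeks, -4.37 and -4.42 in C57BL/6J at 11 weeks, -4.57 and -4.94 in KKAy at 4 weeks, and -5.71 and -6.25 in KKAy at 11 weeks. KKAy was lower at each age, and only 1 of the 4 KKAy arrays, replicate 1 at 4 weeks, was well above background. The difference at 4 weeks was -2.02 (SE 0.23, adjusted p = 0.00316; -0.79 with normexp). At 11 weeks C57BL/6J was at least 1.67-fold higher (adjusted p = 0.00591), a call lost with normexp (-0.11) and without C57BL/6J 11-week replicate 1 (-1.56, adjusted p = 0.0508, against 0.00836 to 0.0508 over the 8 omissions). The third probe, A_52_P263800 (chr1:175773812-175773871), was well above background on 1 array only, C57BL/6J 4-week replicate 1 at -5.74, and was not tested. The brightest Ifi203 probe lists 2 RefSeq accessions, neither found in the reference table, and the other Ifi203 probes list none, so their transcripts were not checked against other family genes.

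**Figure D1:**
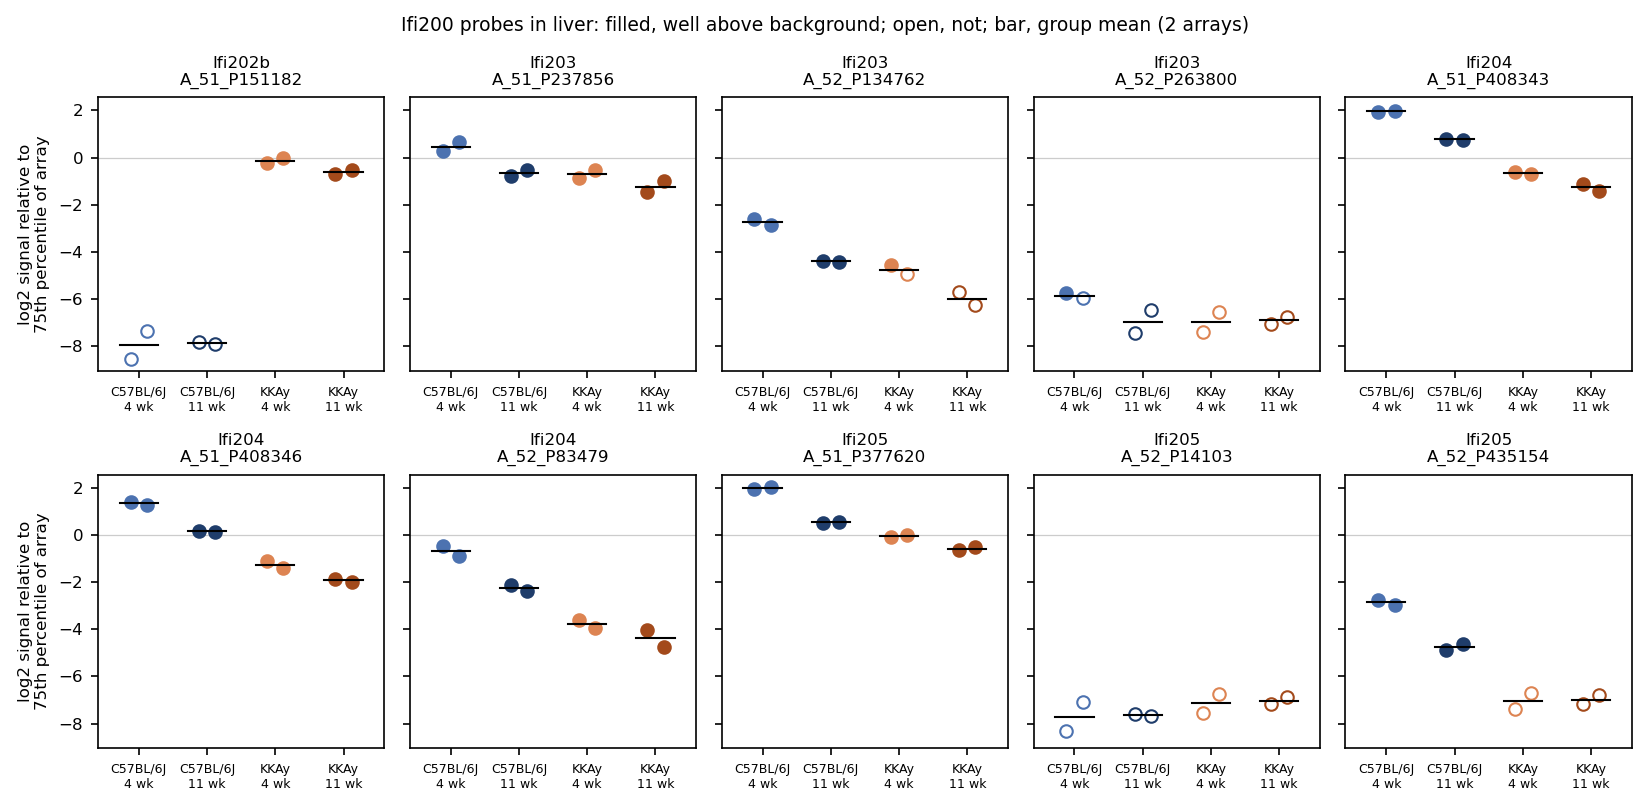
Log2 signal relative to the 75th percentile of the array (y axis) for the 10 probes of Ifi202b, Ifi203, Ifi204 and Ifi205 in the 4 groups (x axis); each point is 1 array, filled where well above background and open where not, and bars are group means of 2 arrays. The Ifi202b points of KKAy lie between -0.70 and -0.04 and those of C57BL/6J at or below -7.34, while the Ifi204 and Ifi205 probes above background run the other way.

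By count, 7 of the 8 probes tested fell and 1, Ifi202b, rose in KKAy at 4 weeks; of all 25320 probes 14.5% were called, 8.72% lower and 5.82% higher. At 11 weeks 6 fell and 1 rose, with the brightest Ifi203 probe not called, against 21.0% of all probes called, 11.6% lower and 9.38% higher. Both KKAy arrays lay below both C57BL/6J arrays for 7 of 8 probes at each age, which 26.4% of all probes did at 4 weeks and 30.3% at 11 weeks. The median difference was -2.31 at 4 weeks and -1.81 at 11 weeks, against 0.0 and -0.03 over all probes. Ifi202b passed the filter through KKAy alone, and Ifi205 A_52_P435154 and Ifi203 A_52_P134762 through C57BL/6J alone, so the difference of these 3 probes was partly built into the filter. Of the 5 probes well above background on all 8 arrays, all of Ifi203, Ifi204 or Ifi205, 5 were called at 4 weeks and 4 at 11 weeks, against 13.9% and 20.8% of the 21509 probes that met that filter. The 10 probes share 4 genes, and several may share transcripts, so they are not independent.

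With age, the members other than Ifi202b fell in C57BL/6J. Of 8 probes 7 were lower at 11 than at 4 weeks, against 6.99% of all probes called and 5.45% lower. Ifi205 A_51_P377620 changed by -1.46 (SE 0.10, adjusted p = 0.00173), Ifi204 A_51_P408343 by -1.18 (SE 0.13, adjusted p = 0.00513) and Ifi203 A_51_P237856 by -1.11 (SE 0.23, adjusted p = 0.0446). The larger values came from dimmer probes, -1.66 on Ifi203 A_52_P134762 and -1.90 on Ifi205 A_52_P435154, which came to -0.56 and -0.50 with normexp, where neither was called. Of these 7 calls the one of Ifi205 A_51_P377620 held whichever array was left out (adjusted p = 0.0049 to 0.0307). The count fell to 1 without either replicate of C57BL/6J at 11 weeks, to 3 without C57BL/6J 4-week replicate 1 and to 2 without replicate 2. Ifi202b stayed at background, so its 0.07 (adjusted p = 0.955) carries no measured level.

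In KKAy, some probes of Ifi203, Ifi204 and Ifi205 fell with age too, and others were not called. Ifi203 A_51_P237856 was at -0.52 (SE 0.23, adjusted p = 0.186) and Ifi204 A_52_P83479 at -0.63 (SE 0.29, adjusted p = 0.206). Ifi205 A_52_P435154, at background, was at 0.07 (SE 0.26, adjusted p = 0.9). Of 8 probes 4 were lower at 11 weeks, against 17.3% of all probes called and 9.83% lower. These were Ifi204 A_51_P408343 (-0.63, SE 0.13, adjusted p = 0.0232), Ifi204 A_51_P408346 (-0.66, SE 0.13, adjusted p = 0.0223), Ifi205 A_51_P377620 (-0.54, SE 0.10, adjusted p = 0.0198) and Ifi203 A_52_P134762, whose 11-week arrays were not above background (KKAy at 4 weeks at least 1.3-fold higher on a group with 1 array above background, adjusted p = 0.0181). With normexp the last of these turned to 0.12. No call remained in a fit of the 4 KKAy arrays alone, and none without C57BL/6J 11-week replicate 1 or 2, KKAy 4-week replicate 1 or KKAy 11-week replicate 2; 1 remained without C57BL/6J 4-week replicate 2, and 2 without KKAy 4-week replicate 2 or KKAy 11-week replicate 1. Both 11-week arrays lay below both 4-week arrays for 7 of 8 probes in each strain, as did 23.5% of all probes in C57BL/6J and 26.2% in KKAy. The 4-week arrays were on 1 slide and the 11-week arrays on the other, so slide and age cannot be told apart, and KKAy arrays held the same positions on both slides, so strain goes with position.

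The strain difference was smaller at 11 than at 4 weeks on 1 member probe, A_51_P377620, which lists Ifi204, Ifi205 and Ifi211. There the change was 0.92 (SE 0.14, adjusted p = 0.0358 for the interaction), from -2.03 to -1.11, and 1 of 8 probes was called against 2.94% of all probes, 1.61% above 0. The call was lost without any 1 of the 8 arrays (adjusted p = 0.0737 to 0.194) and with spike-in scaling (0.74, adjusted p = 0.266, against 0.0027 to 0.266 over the settings other than omissions). On the Ifi205-only probe A_52_P435154, at background in KKAy, the change was 1.97 (SE 0.37, adjusted p = 0.0557) and was not called. For Ifi204 A_51_P408343 the change was 0.55 (SE 0.18, 95% interval 0.11 to 0.99, adjusted p = 0.196) and for the brightest Ifi203 probe 0.59 (SE 0.32, 95% interval -0.21 to 1.38, adjusted p = 0.458). The value of Ifi202b, -0.55 (SE 0.52, adjusted p = 0.718), rests on C57BL/6J arrays at background and carries no measured change. Since the interaction is also the difference between the strains in their change with age, a smaller fall in KKAy was called on that 1 probe only. These comparisons share arrays: the C57BL/6J 4-week arrays enter the 4-week strain difference, the age difference in C57BL/6J and the interaction.

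Ifi207 and other Ifi200 genes were also read. Of 9 listed, 5 had a probe, and 7 of their 9 probes were tested; the DNA sensor Aim2 and Ifi213 were not well above background on any array. All 7 were lower in KKAy at 4 weeks and 5 of 7 at 11 weeks, against 8.72% and 11.6% of all probes, but 5 of these 7 passed the filter through C57BL/6J alone, so their difference was partly built in and the count supports nothing by itself. Ifi207, a pyrin-domain member, was the only one measured well above background on all 8 arrays besides 1 Ifi209 probe, at 0.18 and -0.12 in C57BL/6J at 4 weeks, -0.86 and -1.13 in C57BL/6J at 11 weeks, -2.45 and -3.06 in KKAy at 4 weeks, and -3.22 and -3.65 in KKAy at 11 weeks. Its 4 groups did not overlap, and the strain difference was -2.78 (SE 0.26, adjusted p = 0.00181) and -2.44 (SE 0.26, adjusted p = 0.00222).

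On the 3 probes of Ifi206, 1 of the 4 KKAy arrays of A_52_P326187 and none of the other probes was well above background. C57BL/6J was at least 3.23-fold higher on A_52_P599964 (adjusted p = 0.000348) and at least 2.22-fold higher on A_52_P127813 (adjusted p = 0.00117) at 4 weeks, and A_52_P326187 differed by -2.20 (SE 0.13, adjusted p = 0.000448). At 11 weeks the bounds for the 3 probes were 1.02 to 1.3. Ifi209 differed on A_52_P193657 by -1.82 (SE 0.17, adjusted p = 0.00171) at 4 weeks and -0.55 (SE 0.17, adjusted p = 0.0707) at 11 weeks. The interaction on that probe was 1.27 (SE 0.24, adjusted p = 0.0562), not called. On A_51_P334785 Ifi209 differed by -1.13 (SE 0.10, adjusted p = 0.00156) at 4 weeks and by 0.08 (SE 0.10, adjusted p = 0.652) at 11 weeks, and the interaction was 1.21 (SE 0.15, adjusted p = 0.017). Its A_52_P563280 was called at both ages, but at 11 weeks no array was well above background and the call was lost in 7 of 8 omissions of an array (adjusted p = 0.0469, and 0.0488 to 0.221 over the omissions). The interaction call of Ifi209 was lost without any 1 of the 8 arrays (adjusted p = 0.0579 to 0.123). With normexp, calls were lost for 5 of these 7 probes at 4 weeks, leaving Ifi207 and Ifi206 A_52_P599964, and at 11 weeks Ifi207 was the only one still called.

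**Figure D2:**
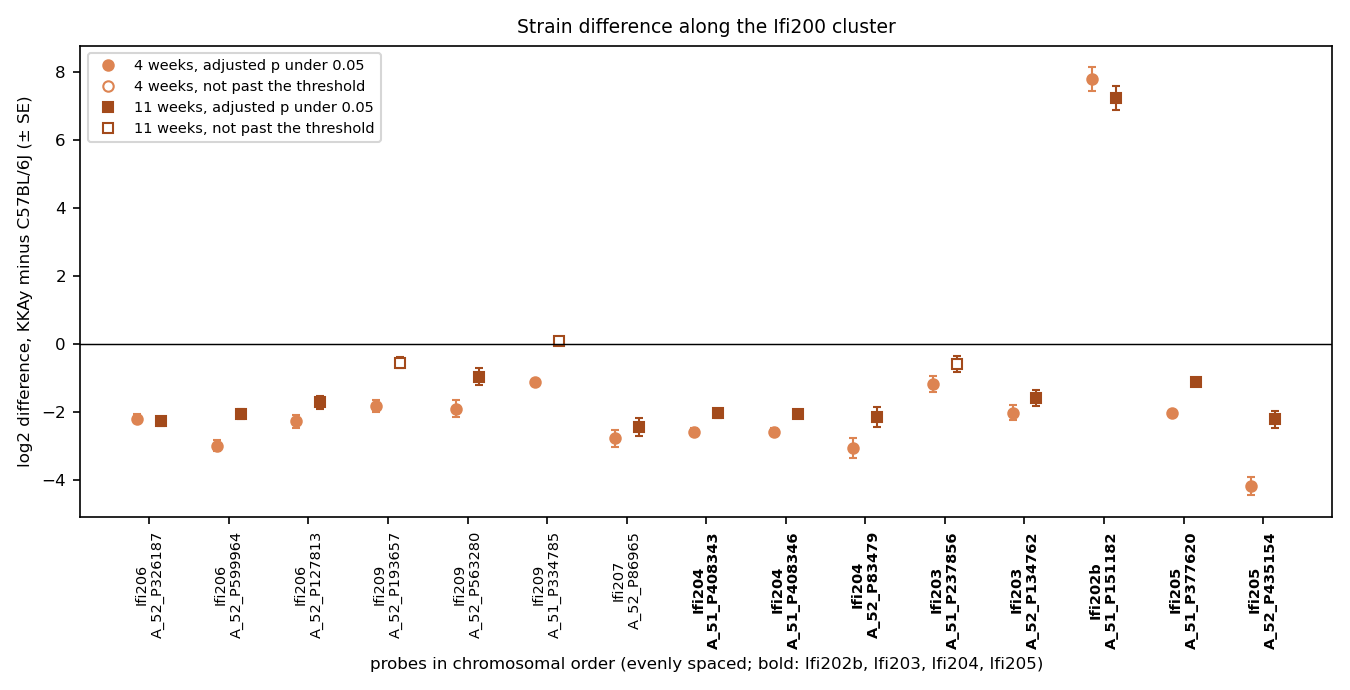
Strain difference (y axis, log2 of KKAy minus C57BL/6J, points with SE) at 4 weeks (circles) and 11 weeks (squares) for the 15 Ifi200 probes tested, evenly spaced in chromosomal order (x axis); filled symbols had an adjusted p under 0.05, and values of probes at background in 1 strain depend on the floor of the signal. Ifi202b stands at 7.80 and 7.25, between Ifi203 and Ifi205 probes at -1.11 or below except the brightest Ifi203 probe at -0.58 at 11 weeks.

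Within 1 Mb of the member probes, other genes went both ways. None of 5 olfactory receptor probes tested was called at either age (limma, adjusted p). Of 13 other probes 6 were called at 4 weeks and 7 at 11 weeks, against 14.5% and 21.0% of all probes. Apcs, which encodes serum amyloid P, was higher in KKAy by 2.55 (SE 0.19, adjusted p = 0.000822) and 4.07 (SE 0.19, adjusted p = 0.000158), and Ackr1, a chemokine-binding receptor of red cells and venules, by 2.30 (SE 0.23, adjusted p = 0.00206) and 2.14 (SE 0.23, adjusted p = 0.00208) on A_51_P311611 and 2.26 and 2.06 on A_52_P110052. The formin gene Fmn2 was higher on A_51_P253310 by 0.81 (SE 0.16, adjusted p = 0.0228) at 4 weeks and 1.21 (SE 0.16, adjusted p = 0.00458) at 11 weeks. On A_52_P256647 Fmn2 was at 1.32 (SE 0.34, adjusted p = 0.0537), not called, and 2.05 (SE 0.34, adjusted p = 0.00982). BB200491, an unnamed transcript at chr1:175703010-175703069 between Ifi204 and Ifi203, was at background in KKAy and at least 2.34-fold higher in C57BL/6J at 4 weeks (adjusted p = 0.00345; -0.55 with normexp, where it was not called). A probe named 9430083B18Rik was called at 11 weeks, with C57BL/6J at least 1.9-fold higher (adjusted p = 0.0427; 0.0131 to 0.184 over the 8 omissions, 6 of which ended the call, those of any C57BL/6J array or either KKAy 11-week array).

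Genes of the interferon pathway were read from lists of upstream signalling and of induced genes, each gene by its brightest probe; over all named genes so read 8.47% were lower and 6.55% higher at 4 weeks, 11.2% lower and 10.2% higher at 11 weeks, and the medians were 0.02 and 0.01. Of 17 receptor and signalling genes 4 were lower and 0 higher at 4 weeks, and 4 lower and 1 higher at 11 weeks, with medians of -0.04 and -0.08. The 11-week count fell from 5 to 2 without C57BL/6J replicate 1 or 2 at either age or KKAy 11-week replicate 2, and to 3 without the other KKAy arrays. Irf7, a transcription factor that amplifies the response, was at -3.11 (SE 0.13, adjusted p = 0.000159) and -1.43 (SE 0.13, adjusted p = 0.00109). Irf9, the DNA-binding part of the factor that recognises the response element, was at -1.16 (SE 0.11, adjusted p = 0.00182) and -1.18 (SE 0.11, adjusted p = 0.00131).

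Of 23 interferon-induced genes 15 were lower and 0 higher at 4 weeks, and 11 lower and 1 higher at 11 weeks, with medians of -1.27 and -0.58. Ifit1, which binds foreign RNA, fell by 2.11 (SE 0.11, adjusted p = 0.000307) and by 1.82 (SE 0.11, adjusted p = 0.000344), and Oasl2 by 2.15 (SE 0.11, adjusted p = 0.00026) and 1.02 (SE 0.11, adjusted p = 0.00189). Usp18, which removes Isg15 and restrains the receptor, was lower by more at 11 weeks, at -3.36 (SE 0.11, adjusted p = 6.44e-05), than at 4 weeks, at -1.55 (SE 0.11, adjusted p = 0.000661; interaction -1.81, adjusted p = 0.00568). The 11-week count fell to 6 without C57BL/6J 11-week replicate 1 and to 5 without replicate 2.

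Of 15 genes of DNA sensing and the inflammasome 4 were lower and 0 higher at 4 weeks, and 1 lower and 1 higher at 11 weeks (medians -0.51 and 0.03). Zbp1, a sensor of Z-form nucleic acid, was at -2.15 (SE 0.21, adjusted p = 0.00187) and -1.05 (SE 0.21, adjusted p = 0.0177; 0.0175 to 0.114 over the 8 omissions). Il18, a cytokine released by inflammasomes, was at -0.93 (SE 0.17, adjusted p = 0.0165) and 0.68 (SE 0.17, adjusted p = 0.0355), a change of sign with an interaction of 1.61 (SE 0.23, adjusted p = 0.0286); its 4-week call was lost without any 1 of the 4-week arrays (adjusted p up to 0.11) and its 11-week call without any 1 array but KKAy 11-week replicate 1 (adjusted p up to 0.201). Samhd1, which breaks down nucleotides, was at -1.05 (SE 0.11, adjusted p = 0.00292) at 4 weeks. Without any 1 array of the 4-week groups the 4-week count was 2. The 11-week count was 0 without either C57BL/6J 11-week array and 1 without any other.

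Of 16 genes whose products are known to bind p202 or p204, or to be regulated through them, 0 were lower and 1 higher at 4 weeks, and 1 lower and 2 higher at 11 weeks (medians 0.04 and 0.03). Id3, an inhibitor of helix-loop-helix factors, was higher by 0.66 (SE 0.13, adjusted p = 0.0259; 0.039 to 0.141 over the 8 omissions) and 0.83 (SE 0.13, adjusted p = 0.00904; 0.0161 to 0.0767). Its relative Id2 was at 0.21 (SE 0.13, adjusted p = 0.408) and 0.50 (SE 0.13, adjusted p = 0.0437), the latter lost without any 1 of the 8 arrays (adjusted p = 0.0668 to 0.243). These counts were 0 at 4 weeks without any 1 array but the KKAy 11-week ones, and at 11 weeks 0 without either C57BL/6J 11-week array and 1 without either C57BL/6J 4-week or KKAy 11-week array. Fos, an immediate early gene, differed by -0.69 (SE 0.23, adjusted p = 0.114) and 0.30 (SE 0.23, adjusted p = 0.422).

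**Figure D3:**
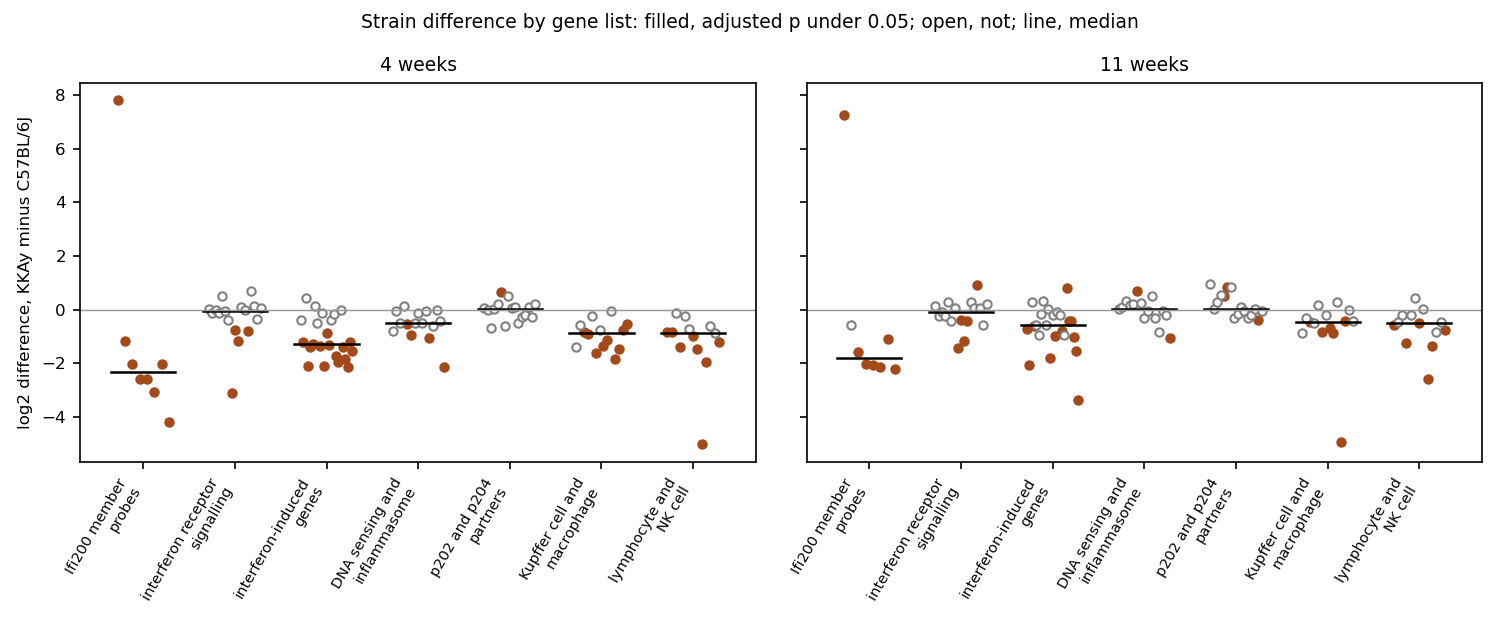
Strain difference (y axis, log2 of KKAy minus C57BL/6J) at 4 weeks and 11 weeks for the 8 member probes tested and for the genes of 6 lists (x axis), 1 point a probe or gene; filled points had an adjusted p under 0.05 and lines are medians. The member probes have a median of -2.31 and the interferon-induced genes one of -1.27 at 4 weeks, and Ifi202b stands alone at the top.

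Macrophage and lymphocyte markers were lower in KKAy, as were Ifi203, Ifi204 and Ifi205. Of 14 markers of Kupffer cells and other macrophages 9 were lower and 0 higher at 4 weeks, and 6 lower and 0 higher at 11 weeks (medians -0.88 and -0.45), and Clec4f, named as the defining marker of Kupffer cells, differed by -1.35 (SE 0.12, adjusted p = 0.00139) and -0.68 (SE 0.12, adjusted p = 0.0115). Their summed level, in multiples of the 75th percentile, was 223 to 269 in C57BL/6J at 4 weeks, 111 to 127 in C57BL/6J at 11 weeks, 111 to 135 in KKAy at 4 weeks and 82.8 to 105 in KKAy at 11 weeks, and all 14 were above background. The sum was thus high in C57BL/6J at 4 weeks, and the groups C57BL/6J at 11 weeks and KKAy at 4 weeks overlapped. Fewer cells of a type and less RNA per cell cannot be told apart in whole liver, and the part of these markers in the fall of Ifi203, Ifi204 and Ifi205 was not tested; Ifi202b rose while they fell. With age, 11 of these 14 markers were lower in C57BL/6J and 8 in KKAy, as were 7 and 7 of the 13 lymphocyte markers and 12 and 9 of the 23 interferon-induced genes, against 6.37% and 10.9% of all named genes. The 11-week count of Kupffer markers called for strain was 1 without C57BL/6J 11-week replicate 1, 2 without its replicate 2 and 3 without either KKAy 11-week array, and the 4-week count was 5 without C57BL/6J 4-week replicate 2.

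Of 13 lymphocyte and natural killer cell markers tested 8 were lower and 0 higher at 4 weeks, and 6 lower and 0 higher at 11 weeks (medians -0.88 and -0.51), with Ncr1 not above background. Their summed level was 3.61 to 3.94 in C57BL/6J at 4 weeks, 1.47 to 1.49 in C57BL/6J at 11 weeks, 1.62 to 1.73 in KKAy at 4 weeks and 0.989 to 1.05 in KKAy at 11 weeks. Their 4-week count was 5 without C57BL/6J 4-week replicate 2 or KKAy 4-week replicate 1, and the 11-week count was 3 without either C57BL/6J 11-week array; with normexp the counts were 4 and 0.

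Other cell types were checked in the same way. Of 5 plasmacytoid dendritic cell markers tested 1 was lower at each age, with Siglech, the defining one, not above background (summed level 31.6 to 70.9 over the 8 arrays). Of 3 neutrophil markers tested 0 were called at 4 weeks and 2, S100a8 and S100a9, were higher at 11 weeks (summed level 1.28 to 2.47 in C57BL/6J and 2.87 to 7.94 in KKAy), with Elane, Ngp and Camp not above background. Of 6 endothelial markers 1 was lower and 1 higher at 4 weeks, and 2 lower and 1 higher at 11 weeks (summed level 30.7 to 53.0), and of 6 stellate cell markers 2 were lower at 4 weeks, and 3 lower and 1 higher at 11 weeks (23.0 to 61.0). Of 3 erythroid markers tested 1 was higher at each age (103 to 284), with Epb42 not above background. The 8 hepatocyte markers were all above background, with summed levels of 1810 to 2470 and Alb at group means of 8.99 to 9.57 on the log2 scale; 2 were lower at 4 weeks, and 4 lower and 1 higher at 11 weeks. The tissue was thus liver by its defining markers.

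Patterns over the 8 arrays were compared with those of 14408 other named genes by Pearson r on log2 levels, as a description: the arrays are 4 groups of 2, so any gene with the same order of groups scores high. The 4 genes most like Ifi202b were a (agouti, r = 0.999), Cap2 (0.999), Pcp4l1 (0.998) and H2bc18 (0.997), on chromosomes 2, 13, 1 and 3. Most like Ifi204 were Ifit1 (0.997), Pak1 (0.994), Aoah (0.994) and Pilrb2 (0.993). Most like Ifi205 were Jdp2, Rnase6 and Rasgrp1 (0.998 each) and Oasl2 (0.997), and most like the brightest Ifi203 probe were Fcgr1 and Gpr65 (0.998 each), Snx20 (0.997) and Flna (0.996).

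For the whole series, an array's 75th percentile of processed signal was 491.6 to 1241 units, 56.3% to 66.7% of spots were well above background, and 0 spots were saturated; with 2 arrays a group, their number limits the precision. Scaling to spike-in spots in place of the 75th percentile moved the median strain difference of all probes to 0.26 at 4 weeks and 0.06 at 11 weeks, and calls on the lower side from 2208 of 3681 to 1081 of 3102 and from 2949 of 5324 to 1738 of 3827. Under that scaling the same number of member probes was called, 8 and 7, and the brightest Ifi204 probe was at -2.32 and -1.95.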

How the data were processed

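Liver RNA of 8 samples was read on 1-colour arrays, grouped by the labelled strain and age. Per the file headers, Agilent Feature Extraction 9.5.1.1 gave each spot's intensity, with background subtracted and no scaling between arrays. A deposited table of log2 values equals the log2 processed signal minus 1 constant per array, with the 75th percentile at 0, and served as an alternative; it held 0 columns without a sample. Here spots of a probe were averaged, control and outlier spots left out, and log2 processed signal taken relative to the array's 75th percentile. Kept probes had both arrays of some group well above background, and were fitted with limma 3.58.1 (lmFit, eBayes) in R 4.3.3 over all 8 arrays, with Benjamini-Hochberg adjustment over all probes kept. The procedure was tested on simulated data.

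Gene names came from a RefSeq table of GRCm38.p6, through accessions for 24375 probes, symbols for 6301 and older symbols for 2426, while 8072 stayed as named in the files. Probe positions come from the file annotation (mm8), in which no exon was looked up. Genes were named by rule: all member probes; other Ifi200 probes; called neighbours within 1 Mb; from each pathway list the members with the smallest adjusted p; and the 4 genes most like each member; a gene so named may be left unreported. The members and lists were chosen with earlier results of these data known. Alternatives were other background correction, scaling, filters and fits, each array left out, and the replicate number as a block.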

Additional observations from a re-analysis of the deposited data

Results flagged for a closer look

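Between 4 and 11 weeks the strain difference (KKAy minus C57BL/6J, log2) changed for 1 member probe by limma's interaction test. Over all probes 2.94% were called. The strain difference also changed for 6 genes among the other Ifi200, pathway list and neighbouring genes named above. The list genes and neighbours were named by strain p-values in these same arrays, so their count cannot be set against that share. For Ifi205 A_51_P377620, which also lists Ifi204 and Ifi211, the change was 0.92 (SE 0.14, adjusted p = 0.0358), from -2.03 to -1.11. For Ifi209 A_51_P334785 it was 1.21 (SE 0.15, adjusted p = 0.017), from -1.13 to 0.08, and both calls were lost without any 1 of the 8 arrays. For Irf7 it was 1.68 (SE 0.18, adjusted p = 0.0123), from -3.11 to -1.43, and for Oasl2 1.13 (SE 0.15, adjusted p = 0.0218), from -2.15 to -1.02. For Il18 it was 1.61 (SE 0.23, adjusted p = 0.0286), from -0.93 to 0.68. For Apcs it was 1.53 (SE 0.27, adjusted p = 0.0466), from 2.55 to 4.07. For Usp18 it was -1.81 (SE 0.15, adjusted p = 0.00568), from -1.55 to -3.36. Each age was on a slide of its own, so these changes and a difference between slides cannot be told apart.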

How the results depend on the processing

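Of the 8 member probes tested, those called for strain numbered 8 at 4 weeks and 7 at 11 weeks; with the brightest probe of each gene they were 4 and 3 of 4, and among probes above background on all arrays, which leaves out Ifi202b, 5 and 4 of 5. The 7 called for age in C57BL/6J became 3 of 4 with the brightest probes, 4 with normexp and 1 to 7 with 1 array left out. The 4 called for age in KKAy became 0 in the fit of 4 arrays alone, 2 of 4 with the brightest probes, 0 with no filter and 0 to 3 with 1 array left out. The 1 called for the interaction became 0 with no filter or spike-in scaling, 2 with quantile normalization and 0 with any 1 array left out; it has no fit of 4 arrays alone. The brightest Ifi203 probe at 4 weeks, at -1.17, missed the threshold in the fit of 4 arrays alone (-1.17) and with no filter (-1.17), and ran from -1.35 to -0.99 with 1 array left out. No other strain call of a member's brightest probe was lost under any alternative that gave a value. The cause of these changes was not tested, beyond the smaller number of probes or arrays that some settings leave.

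Signs turned for differences that were not called, or for dim probes. Ifi202b with age in C57BL/6J went from 0.07 to -0.01 with quantile normalization and ran from -0.52 to 0.67 with 1 array left out, and its interaction from -1.14 to 0.05. Ifi203 A_52_P134762 with age in KKAy turned to 0.12 with normexp. Ifi205 A_52_P435154 with age in KKAy turned to -0.0029 with quantile normalization and -0.10 with spike-in scaling, and ran from -0.27 to 0.40. With normexp Ifi209 turned at 11 weeks, to 0.04 on A_52_P193657 and 0.12 on A_52_P563280.

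The replicate number, 1 or 2, was also fitted as a replicate block. Deviations of same-numbered arrays correlated at 0.56 to 0.68 between groups over 25303 probes, but with 2 numbers this does not show that they pair samples. With the replicate block 8 member probes were called for strain at each age, 7 and 6 for age and 6 for the interaction, against 41.9%, 53.6%, 29.9%, 51.2% and 27.8% of all probes, and the brightest Ifi203 probe was called at 11 weeks at -0.58 (adjusted p = 0.0019, against 0.0019 to 0.278 over the settings other than omissions). List counts rose with it, for example to 8 and 9 for the p202 and p204 partners and to 12 for receptor signalling at 11 weeks; the lowest count under any other setting was 0 for partners at 4 weeks, DNA sensing at 11 weeks and lymphocyte markers at 11 weeks.

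Dim signals limit the sizes of Ifi202b, of Ifi205 A_52_P435154 and of Ifi203 A_52_P134762, since the processed signal and normexp differ most near background. Spike-in scaling also moved the lower share of calls over all probes from 56.9% to 77.0% for age in KKAy and from 45.3% to 61.5% for the interaction.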
